A study of Mus musculus with 12 samples.

Results

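The chains of 4 collagen types were followed in NIH-3T3 cells, an immortalised line of mouse embryonic fibroblasts: the fibrillar chains Col1a1, Col1a2, Col3a1, Col5a1 and Col5a2, the basement membrane chains Col4a1 and Col4a2, and the beaded-filament chains Col6a1, Col6a2 and Col6a3. Members were chosen by gene symbol, with earlier results of these data known. All probes that the platform annotation gives to these 10 symbols were read, out of 45281 probes on the array. The annotation listed 17 probes for 9 of the symbols and none for Col6a3, and 11 of the 17 probes were bright enough to be tested. These 11 probes stood for 8 of the 10 genes, of 9108 genes tested in all. The 5 probes of Col5a2 were below the detection level on each of the 12 arrays, so Col5a2 and Col6a3 have no value in any comparison.

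Messenger RNA was measured on Illumina mouse bead arrays in 3 groups of 4 arrays each, numbered as biological replicates. WT cells carried no construct named in the labels, U17_KD was a stable clone with ShSnhg3, a short hairpin named for Snhg3, the host transcript of the small nucleolar RNA U17, and U17_OE was a stable clone with the U17b construct pMDβglobinU17b. All 3 groups, WT included, were grown for 24 hours in LPDS, that is, lipoprotein-deficient serum, which withdraws external cholesterol, and the study sought messenger RNAs regulated by U17. No clone with an empty or scrambled construct is named, and U17_KD and U17_OE are 1 clone each, so effects of the U17 level and traits of the clone itself cannot be told apart. Nothing says whether the 4 replicates came from separate experiments, so the p-values measure the spread between these samples, which may be partly technical.

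Collagens are secreted proteins in which 3 chains wind into a triple helix, and each type is defined by the chains it combines. Type I, built from the products of Col1a1 and Col1a2, and type III, built from that of Col3a1, form the fibrils that give connective tissue its tensile strength, while type V, from Col5a1 and Col5a2, sits in the same fibrils and controls how they start and how thick they grow. Type IV, from Col4a1 and Col4a2, forms the sheet-like network of basement membranes. Type VI, from Col6a1, Col6a2 and Col6a3, forms beaded microfilaments around cells. Fibroblasts are the main source of types I, III, V and VI. In the RefSeq annotation the partner genes Col4a1 and Col4a2 are neighbours on chromosome 8, as are Col6a1 and Col6a2 on chromosome 10, and Col3a1 lies next to Col5a2, of another collagen type, on chromosome 1.

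Because most of these genes moved together in 1 of the clones, the DNA just before their starts is shown for 5 of them, as RefSeq gives it for GRCm38.p6, 5′ to 3′ along the strand of the gene. RefSeq windows were matched for 8 of the 10 members, all but Col1a1 and Col5a2. Those of Col4a1 and Col4a2 are not printed, since each lies in the transcript of the other gene, nor is that of Col6a3, which has no measured value. Capitals mark matches, on either strand, to 4 short motifs: TATAAA, the core of the TATA box, CCAAT, bound by NF-Y, GGGCGG, bound by Sp1, and TGANTCA, bound by AP-1. No marked match overlaps another. Positions are counted back from the last base before the start, which is -1. The window of Col5a1 is 206 bases long, because 44 bases inside the span of the gene were removed, and the others have 250.
Col1a2 promoter, chr6:4505368-4505617, plus strand: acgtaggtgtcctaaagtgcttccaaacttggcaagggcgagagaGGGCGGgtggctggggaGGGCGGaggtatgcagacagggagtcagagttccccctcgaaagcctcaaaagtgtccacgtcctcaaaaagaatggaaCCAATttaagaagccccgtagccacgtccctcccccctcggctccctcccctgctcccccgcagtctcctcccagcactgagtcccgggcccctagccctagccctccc
Col3a1 promoter, chr1:45311288-45311537, plus strand: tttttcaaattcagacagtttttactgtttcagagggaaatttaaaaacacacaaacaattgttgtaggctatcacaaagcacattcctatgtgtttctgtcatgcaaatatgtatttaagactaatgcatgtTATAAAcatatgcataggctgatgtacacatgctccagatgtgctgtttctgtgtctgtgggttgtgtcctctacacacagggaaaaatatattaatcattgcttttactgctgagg
Col5a1 promoter, chr2:27886175-27886380, plus strand: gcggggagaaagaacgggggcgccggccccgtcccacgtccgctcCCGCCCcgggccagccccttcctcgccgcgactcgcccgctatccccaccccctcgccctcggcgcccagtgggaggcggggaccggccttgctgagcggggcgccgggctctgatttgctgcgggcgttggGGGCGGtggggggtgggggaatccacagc
Col6a1 promoter, chr10:76726045-76726294, minus strand: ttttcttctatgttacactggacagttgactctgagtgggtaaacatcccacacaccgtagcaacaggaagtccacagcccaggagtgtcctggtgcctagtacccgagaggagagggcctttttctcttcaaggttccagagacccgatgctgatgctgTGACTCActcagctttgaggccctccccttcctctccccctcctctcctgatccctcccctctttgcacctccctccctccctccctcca
Col6a2 promoter, second start, chr10:76623631-76623880, minus strand: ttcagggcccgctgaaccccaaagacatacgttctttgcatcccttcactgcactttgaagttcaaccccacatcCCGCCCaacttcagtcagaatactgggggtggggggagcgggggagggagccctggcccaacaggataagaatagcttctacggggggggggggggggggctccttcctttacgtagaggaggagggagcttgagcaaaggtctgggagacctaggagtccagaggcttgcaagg
The Col1a2 window held 1 CCAAT match, with its first base at -109, and 2 GGGCGG matches at -205 and -188. In the Col3a1 window the only match was TATAAA at -117, and in the Col5a1 window there were 2 GGGCGG matches, at -161 and -29. The Col6a1 window held TGANTCA at -90 and the Col6a2 window GGGCGG at -175. Over all 8 matched members, GGGCGG was found in 4 (Col1a2, Col5a1, Col4a2 and Col6a2), CCAAT in 3 (Col1a2, Col4a1 and Col4a2), TATAAA in 1 and TGANTCA in 1. Among all 32851 RefSeq windows of 250 bases, TATAAA occurred in 12.4%, CCAAT in 33.8%, GGGCGG in 32.7% and TGANTCA in 6.75%. A match describes letters and not a bound site.

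The detection level was an intensity of 30.5, set from the WT arrays. Since the deposited values have nearly the same distribution on every array, the count of probes that reach it (15820 to 15832) says nothing about array quality, whereas 15140 to 16182 probes of the WT arrays had a detection p-value under 0.05. Arrays of 1 group correlated at 0.980 to 0.995. U17_OE replicate 3 stood apart, as the SD of its log2 differences from its group mates was 0.426, compared with 0.324 to 0.340 in the rest of U17_OE and 0.230 to 0.302 in WT and U17_KD. No probe was named Snhg3, Snora73a or Snora73b, so the labels could not be checked by the level of U17 or its host. Of 9 fibroblast markers 8 were detected on all 12 arrays, and only Fap was not detected. Of 6 endothelial markers 5 (Tek, Cdh5, Pecam1, Tie1, Emcn) were below the detection level on every array, and Kdr was detected on some but not all arrays of each group. The other lists each held genes detected on all arrays of at least 1 group. Of 5 macrophage markers Cd14 was detected on all arrays and Ptprc and Adgre1 on none. Csf1r was detected on all U17_KD arrays and Aif1 on all U17_OE arrays, and each on some arrays of the other groups. Of 6 adipocyte markers Lpl was detected on all arrays and the other 5, with Adipoq and Pparg, on none. Of 7 cartilage and bone markers Sox9 was detected on all arrays, Alpl on all WT and U17_KD arrays, and Acan, Bglap, Sp7 and Ibsp on none, with a summed intensity of 12700 to 17600. Among 6 epithelial markers Krt8 and Cdh1 were detected on all WT arrays and Cldn4, Krt18, Epcam and Krt19 on no array, with a summed intensity of 45.2 to 106.

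The knockdown clone had more collagen messenger RNA than WT cells. All 8 tested chains rose, by 1.40 to 3.13 times, and all but Col1a2 (7 of 8) were at least 2-fold higher. Col5a1 (2.01-fold) and Col4a1 (2.02-fold) barely reached 2-fold. Their log2 differences went down to 0.955 and 0.952 with 1 array left out. Only for Col1a1 did the 95% interval (2.43-fold to 4.04-fold) lie wholly above 2-fold. Fibrillar, basement membrane and beaded-filament chains had median log2 differences of 1.24, 1.08 and 1.12. The calls came from limma's test with Benjamini-Hochberg adjustment over all 16706 kept probes, at an adjusted p under 0.05. By the same rule 20% of all genes were called higher in this clone, and 3.49% were called and at least 2-fold higher. In all 8 genes every U17_KD array lay above every WT array, as was so for 22.1% of all genes. The median log2 difference was 1.11 over the 8 collagens and -0.02 over all genes. Since the collagens were chosen with earlier results known, the shares over all genes are a background and not a test of the set. All 8 genes were detected on all 4 WT arrays, so none entered the test through the clone in which it was high. In the plot of every array's values the U17_KD points lie close together and above the WT points in each panel.

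**Figure D1:**
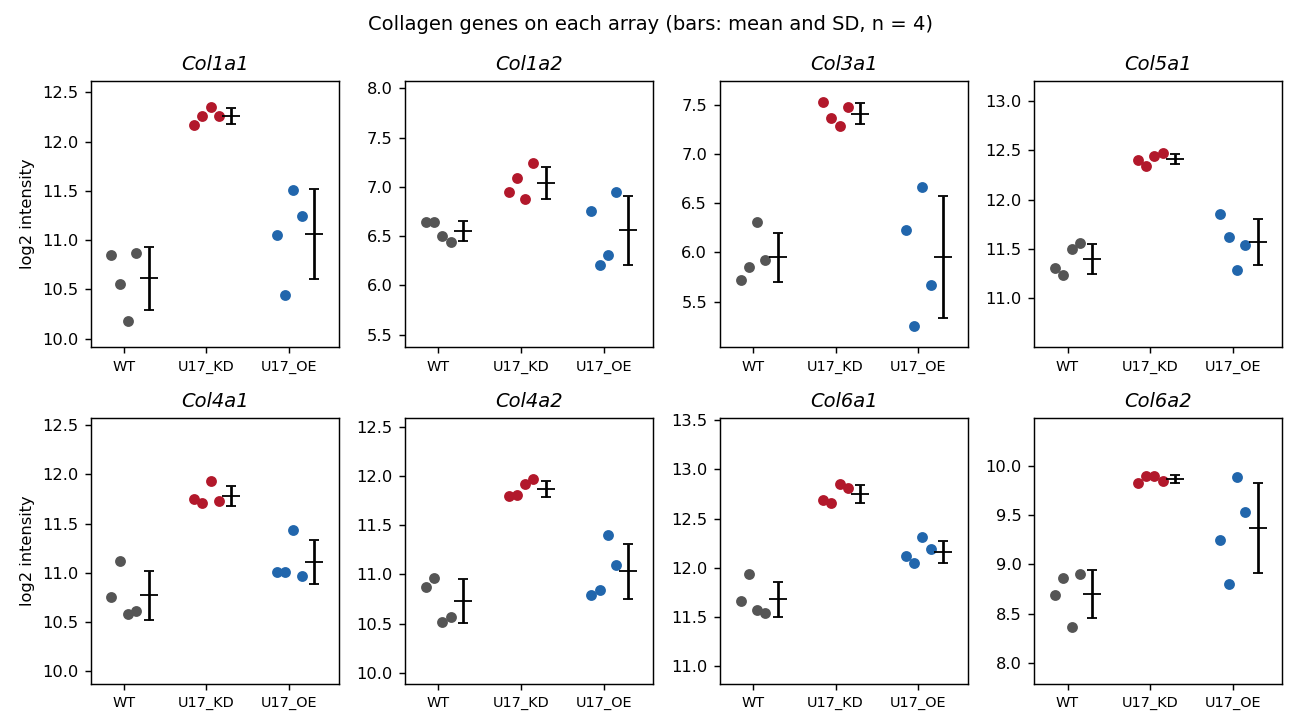
Log2 intensity (vertical axis, 2.7 units high in every panel, with a different start) of the 8 tested collagen genes on each array, by group (horizontal axis, WT, U17_KD and U17_OE). Points are single arrays and the bars give the mean and SD of 4 arrays. All 4 U17_KD arrays lie above all 4 WT arrays in each of the 8 panels, while the U17_OE arrays lie apart from WT only for Col6a1.

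Type I collagen showed the largest and the smallest of these rises. Col1a1, the chain that supplies most of the type I helix, had log2 intensities of 10.85, 10.55, 10.18 and 10.87 in WT, of 12.17, 12.26, 12.35 and 12.26 in U17_KD and of 11.05, 10.44, 11.51 and 11.24 in U17_OE. The U17_KD arrays lay above every other array, and those of U17_OE overlapped WT. By limma Col1a1 rose by 1.65 ± 0.17 (SE) in U17_KD (adjusted p = 5.39e-07), and 1.08% of genes had a higher difference. Col1a2, the other type I chain, was measured by a dim probe, at log2 intensities of 6.64, 6.64, 6.50 and 6.44 in WT, of 6.95, 7.09, 6.88 and 7.24 in U17_KD and of 6.76, 6.21, 6.31 and 6.95 in U17_OE. Its U17_KD values were above those of WT by a narrow gap and overlapped U17_OE. The rise of Col1a2 was 0.49 ± 0.16 (adjusted p = 0.0209), and it was not called when WT replicate 4 (adjusted p = 0.0556), U17_KD replicate 2 (0.0522) or U17_KD replicate 4 (0.0732) was left out. Its intensities were between 59.0 and 136, and adding 16 before the log makes differences of such dim probes smaller than they are.

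Type III and type V collagen rose as well. Col3a1, the single chain of type III, had log2 intensities of 5.72, 5.85, 6.31 and 5.92 in WT, of 7.53, 7.36, 7.28 and 7.48 in U17_KD and of 6.23, 5.25, 6.66 and 5.67 in U17_OE. It was detected on all WT and U17_KD arrays and on 3 of 4 U17_OE arrays, and the U17_KD values stood clear of both other groups. By limma Col3a1 rose by 1.46 ± 0.23 in U17_KD (adjusted p = 4.62e-05). A second Col3a1 probe was too dim to be tested, with 2 of 4 U17_KD arrays and 0 of 8 others at the detection level. Col5a1, which helps to start fibrils, had log2 intensities of 11.31, 11.24, 11.50 and 11.56 in WT, of 12.40, 12.34, 12.44 and 12.47 in U17_KD and of 11.85, 11.62, 11.29 and 11.54 in U17_OE. Its U17_KD arrays agreed closely, with an SD of 0.05, and exceeded all others. Col5a1 rose by 1.01 ± 0.10 (adjusted p = 2.82e-07). Its partner Col5a2 was below the detection level on every array, with mean log2 values of 4.53 to 5.15 over its 5 probes and 3 groups.

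The basement membrane chains Col4a1 and Col4a2, which join in 1 helix, kept close to each other. Col4a1 had log2 intensities of 10.75, 11.12, 10.58 and 10.61 in WT, of 11.75, 11.71, 11.93 and 11.73 in U17_KD and of 11.01, 11.01, 11.44 and 10.97 in U17_OE. Col4a2 had 10.87, 10.96, 10.52 and 10.57 in WT, 11.80, 11.81, 11.92 and 11.97 in U17_KD and 10.79, 10.84, 11.40 and 11.09 in U17_OE. For both genes the U17_KD arrays were above all others, and U17_OE replicate 3 was the highest of its group. The rises in U17_KD were 1.01 ± 0.12 for Col4a1 (limma, adjusted p = 1.85e-06) and 1.14 ± 0.12 for Col4a2 (adjusted p = 6.17e-07).

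Type VI collagen, which has more than 1 tested probe per gene, gave the only collagen calls that were shared by both clones against WT. Col6a1 had log2 intensities of 11.66, 11.94, 11.57 and 11.54 in WT, of 12.69, 12.66, 12.85 and 12.81 in U17_KD and of 12.12, 12.05, 12.31 and 12.19 in U17_OE. The 3 groups did not overlap, with WT lowest, U17_OE in between and U17_KD highest. By limma Col6a1 rose by 1.07 ± 0.09 in U17_KD (adjusted p = 2.13e-08). The second bright Col6a1 probe averaged 11.63 ± 0.06 (SD, n = 4) across WT, 12.67 ± 0.08 across U17_KD and 12.11 ± 0.11 across U17_OE. A further, dim Col6a1 probe was below the detection level on all WT arrays and reached it on 4 U17_KD and 3 U17_OE arrays, so it entered the test through the clones. It was at least 1.96-fold higher in U17_KD (adjusted p = 1.91e-05) and at least 1.33-fold higher in U17_OE (adjusted p = 0.012). For these bounds each dim WT array was set at the lowest signal of any detected probe on it.

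Col6a2, the second type VI chain, had log2 intensities of 8.69, 8.86, 8.37 and 8.90 in WT, of 9.83, 9.90, 9.90 and 9.85 in U17_KD and of 9.25, 8.80, 9.89 and 9.53 in U17_OE. The U17_KD values lay close together, whereas those of U17_OE were spread from the range of WT to that of U17_KD. Col6a2 rose by 1.17 ± 0.17 in U17_KD (limma, adjusted p = 2.26e-05). Its other probe, annotated to another transcript record, averaged 6.58 ± 0.24 across WT, 7.20 ± 0.16 across U17_KD and 7.21 ± 0.19 across U17_OE. That probe was called in U17_KD with a log2 difference of 0.63 (adjusted p = 0.00185). Of the 10 collagen probes that were detected in WT, all 10 were called higher in U17_KD, against 18.4% of all kept probes. The dim Col6a1 probe is left out of this count, which holds repeated probes of Col6a1 and of Col6a2. The shares over all kept probes, here and below, also cover probes not detected in WT.

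The summed intensities of the muscle and adipocyte marker lists differed between WT and both clones. In each of these lists only 1 gene was detected on all arrays. The summed intensity of 6 smooth and skeletal muscle markers ran from 26400 to 28600 over the WT arrays, from 13800 to 15300 over U17_KD and from 17800 to 19900 over U17_OE. Acta2 was the only 1 of the 6 detected on all arrays, and Cnn1, Myod1 and Myh11 were below the detection level on every array. The sum of 6 adipocyte markers ran from 590 to 781 over WT, from 2050 to 2480 over U17_KD and from 931 to 1730 over U17_OE, with Lpl the only one of the 6 detected. For 9 fibroblast markers the sums were 48600 to 56500, 55400 to 58700 and 44700 to 53400 in the order WT, U17_KD, U17_OE, and each clone overlapped WT. Sums for 5 macrophage markers were 444 to 559, 522 to 568 and 667 to 818 in the same order, and WT and U17_KD overlapped. The part of these shifts in the collagen results was not tested, and in bulk samples fewer cells of a kind and less RNA per cell cannot be told apart.

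By their median, the collagens rose less in the overexpression clone than in the knockdown clone. The beaded-filament genes Col6a1 and Col6a2 rose, and the other 6 tested chains did not pass the test. By the same limma call 6.48% of all genes were higher in U17_OE, so 2 of 8 collagens are to be read against that share. The median log2 difference was 0.32 over the 8 collagens and -0.01 over all genes, whose upper quartile was 0.14. Col6a1 rose by 0.49 ± 0.09 (adjusted p = 0.00129), with no overlap between its groups. Such non-overlap upward was seen in 1 of 8 collagens and in 8.09% of all genes. The second bright Col6a1 probe was called too. The dim Col6a1 probe was also called, but no WT array detected it, so it entered the test through the clones. On that dim probe U17_OE and WT overlapped.

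Col6a2 rose by 0.67 ± 0.17 in U17_OE (limma, adjusted p = 0.014), although U17_OE replicate 2, at 8.80, lay inside the range of WT. It was not called without WT replicate 3 (adjusted p = 0.0584), without U17_OE replicate 4 (0.0559) or when only the 2 groups were fitted (0.0521). On its other probe Col6a2 was called as well, with a log2 difference of 0.63 (adjusted p = 0.00669) and no overlap with WT. Of the 10 collagen probes detected in WT 4 were called higher, against 5.99% of all kept probes. All 4 are probes of the type VI genes Col6a1 and Col6a2, so they are not 4 separate members.

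Among the fibrillar chains in U17_OE, the log2 differences from WT were 0.45 for Col1a1 (95% interval 0.08 to 0.82, limma adjusted p = 0.112), 0.17 for Col5a1 (-0.04 to 0.38, adjusted p = 0.335), 0.00 for Col1a2 (-0.33 to 0.34, adjusted p = 0.993) and 0.00 for Col3a1 (-0.47 to 0.48, adjusted p = 0.995). Their groups overlapped in each case. These intervals do not show that the chains are equal in U17_OE and WT. The basement membrane chains gave 0.34 for Col4a1 (0.09 to 0.59, adjusted p = 0.0732) and 0.30 for Col4a2 (0.04 to 0.55, adjusted p = 0.137).

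These U17_OE values depended on single arrays. U17_OE replicate 2 had 1 of 8 collagens above the mean of its group, with a median deviation of -0.27, and U17_OE replicate 3 had 6 of 8 above it, with a median of 0.35. The spread over the U17_OE arrays was an SD of 0.11 to 0.62 among the 8 genes, compared with 0.04 to 0.16 in U17_KD and 0.10 to 0.32 in WT. Without U17_OE replicate 3, the array that stood apart, Col6a1 (0.44, limma adjusted p = 0.00101) and Col6a2 (0.49, adjusted p = 0.0143) were still called and Col5a1 was called in addition (0.26, adjusted p = 0.0352). In that fit Col1a1 was at 0.30, Col4a1 at 0.23, Col4a2 at 0.17, Col1a2 at 0.09 and Col3a1 at -0.23, with none of the 5 called. Without U17_OE replicate 2, Col1a1 was called (0.66, adjusted p = 0.00518), and without WT replicate 2, Col4a1 was (0.46, adjusted p = 0.0123).

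**Figure D2:**
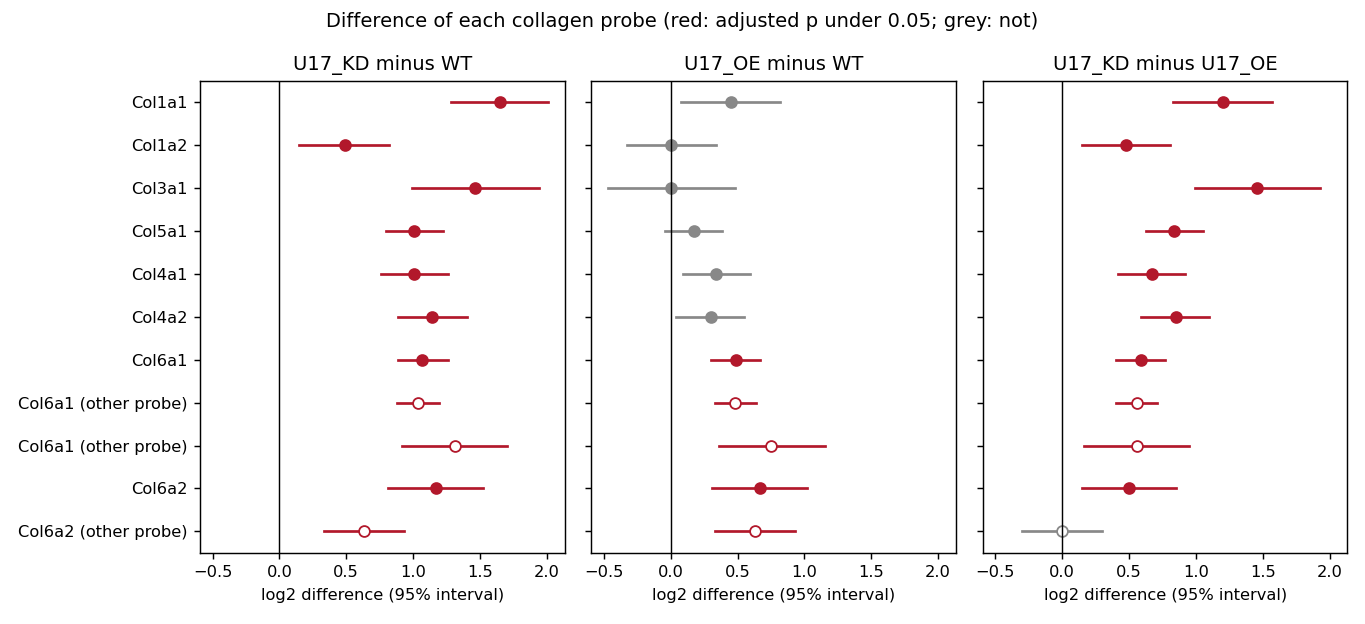
Log2 difference (horizontal axis) with its 95% interval for each of the 11 tested collagen probes (vertical axis) in the 3 comparisons. Filled points are the probes that give the gene's value, open points the other probes, and red marks an adjusted p under 0.05. Against WT all 11 probes are red in U17_KD and only the 5 type VI probes are in U17_OE; these include the dim Col6a1 probe, which no WT array detected.

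The clones were also compared directly, since a call in 1 clone and none in the other does not show that they differ. The 3 comparisons share arrays, so their values are given side by side and not as separate evidence. Each of the 8 collagens was called higher in U17_KD than in U17_OE, where 16.5% of all genes were. The differences by limma were 1.46 for Col3a1 (adjusted p = 6.9e-05), 1.20 for Col1a1 (3.61e-05), 0.85 for Col4a2 (3.4e-05), 0.84 for Col5a1 (4.22e-06), 0.67 for Col4a1 (0.000259) and 0.59 for Col6a1 (5.37e-05). In these 6 genes the groups did not overlap, against 16% of all genes with U17_KD wholly higher.

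The remaining pair was less firm. Col6a2 differed between the clones by 0.50 (limma, adjusted p = 0.0312) and Col1a2 by 0.48 (adjusted p = 0.0271), and in both genes the groups overlapped. The other Col6a2 probe gave 0.00 (95% interval -0.30 to 0.30, adjusted p = 0.988), so the probes of this gene disagree on whether the clones differ, and of the 10 collagen probes detected in WT 9 were called higher, against 14.8% of all kept probes. Col6a2 was not called when any 1 of the 4 U17_KD arrays was left out (adjusted p = 0.0573, 0.0678, 0.0702 and 0.0584), nor without U17_OE replicate 1 (0.069) or replicate 2 (0.31 on the log2 scale, 0.113), nor without the mean-variance trend (0.0597). Col1a2 was not called without U17_OE replicate 2 (0.0939) or 3 (0.0562) or without U17_KD replicate 2 (0.0647) or 4 (0.0899).

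Where the collagens stood among all genes differed with the clone. In U17_KD between 1.08% of genes, for Col1a1, and 3.41%, for Col5a1, had a higher log2 difference than 7 of the chains, and 12% did for Col1a2. In U17_OE the share ranged from 1.55% for Col6a2 and 3.66% for Col6a1 through 4.39% for Col1a1, 7.93% for Col4a1, 10% for Col4a2 and 21.4% for Col5a1 to 48.1% for Col3a1 and 48.2% for Col1a2. Col3a1, on its dim probe, therefore had the second highest rank of the 8 in the knockdown clone and stood near the middle of all genes in the overexpression clone.

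**Figure D3:**
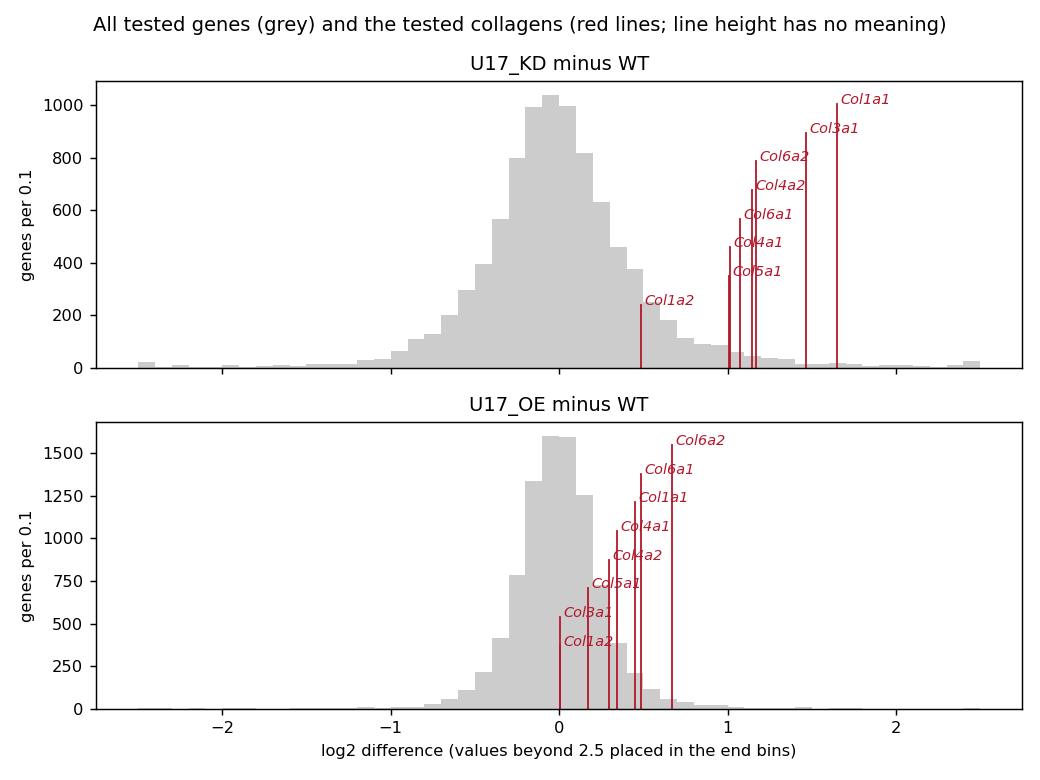
Number of the 9108 tested genes (vertical axis, genes per 0.1) by log2 difference from WT (horizontal axis), for U17_KD above and U17_OE below, with the 8 tested collagens as red lines whose height has no meaning. In U17_KD the lines run from 0.49 to 1.65, to the right of most genes, and in U17_OE from 0.00 to 0.67.

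Partner chains of 1 molecule were set against each other by the change in their difference within each array, a test added after the values were seen. For type I, Col1a1 moved more than Col1a2 in U17_KD, with a difference of log2 differences of 1.16 (exact permutation test, two-sided, p = 0.0286, the smallest that 4 against 4 arrays allow). Adjusted over the 9 tests of 3 pairs and 3 comparisons, its p was 0.257, the lowest that 1 such result alone can reach. With these few arrays the adjusted test could not call 1 pair alone, so it does not decide whether the chains moved apart. The dimness of the Col1a2 probe also limits this comparison. Col4a1 and Col4a2 differed by -0.13 in U17_KD (exact p = 0.171) and by 0.04 in U17_OE (exact p = 0.629). For Col6a1 and Col6a2 the values were -0.09 in U17_KD and -0.18 in U17_OE (exact p = 0.457 in both).

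The pattern over the 12 arrays was then compared between genes, as the root mean square difference of log2 values after the WT mean of each gene was subtracted. This is a description over arrays of 3 groups, in which any gene with similar group shifts comes close. Col4a1 was the nearest of 9107 genes to Col4a2, at 0.136, and Col4a2 was the eighth nearest to Col4a1. For Col4a1 itself the nearest were Ugt1a10 (0.125) and Col6a1 (0.127). Col6a1 had Rhou (0.0953) as its nearest gene and then Sparc (0.119), which encodes a collagen-binding matrix protein, with Col6a2 at rank 134. Measured from Col6a2, Col6a1 was at rank 14.

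The chains of type I collagen were not near neighbours in this measure, which uses the same dim Col1a2 probe. The genes nearest to Col1a1 were Lgals3bp (0.201) and Pcolce (0.215), the enhancer of procollagen C-proteinase. Col1a2 was at rank 1076 of 9107 genes with 0.779, closer than the median of 1.06 over all genes. Measured from Col1a2, Col1a1 was at rank 8523 with the same 0.779, where the median was 0.43. The nearest gene was Galnt10 (0.12) for Col1a2, Abcd2 (0.284) for Col3a1, Arsa (0.0623) for Col5a1 and Ly6e (0.187) for Col6a2. Col3a1 had no gene closer than 0.284, which is the widest such gap of the 8 members. Its probe was dim as well, and its spread over the U17_OE arrays (SD 0.62), the largest of the 8, enters this distance.

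Other collagen genes did not all move with these chains in the knockdown clone, where 20% of all genes were called higher and 20.4% lower. Of 7 further basement membrane and beaded-filament chains 2 were bright enough to be tested, and both rose: Col4a5 by 0.99 ± 0.12 (limma, adjusted p = 3.63e-06) and Col4a6 by 0.85 ± 0.13 (adjusted p = 5.36e-05), which are partners in another type IV network. Neither of the 2 tested of 6 further fibrillar chains was called, with differences of -0.06 for Col11a2 and -0.05 for Col27a1, although a second Col27a1 probe was called at 0.71. Both values lie near the detection level and say little about a change. Col11a2 was detected on 3 U17_KD and 4 WT arrays, and Col27a1 on 2 U17_KD and 3 WT arrays. Among 5 tested of 21 FACIT, network, transmembrane and other collagens, Col16a1 (1.04) and the anchoring-fibril chain Col7a1 (0.92) rose, while Col8a1 fell by 0.37 on 1 of its 2 probes. The hemidesmosome chain Col17a1 was called lower too, but it was detected on only 1 of 4 U17_KD arrays, so the size of its fitted fall (-1.23) rests on values mostly below detection. In U17_OE limma called none of these 9 genes, where 6.48% of all genes were called higher and 6.37% lower. For so few genes this is near the background. Of the 9 genes 1 had an unadjusted p under 0.05.

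Genes that fold and modify collagen chains rose in part in U17_KD. Of 17 tested genes for folding, modification and export 7 rose and 1 fell, where 20% of all genes rose and 20.4% fell, with a median log2 difference of 0.34. P4ha2 and P4ha1, subunits of the prolyl hydroxylase that stabilises the helix, rose by 0.95 ± 0.08 (limma, adjusted p = 3.71e-08) and 0.68 ± 0.08 (adjusted p = 2.43e-06). Serpinh1, the collagen chaperone HSP47, rose by 0.70 ± 0.06 (adjusted p = 3.02e-08) and the isomerase Fkbp14 by 0.87 ± 0.13. In U17_OE 6.48% of all genes were called higher and 6.37% lower. Of the 17 genes 0 were called higher, which is near that background, and 2 lower. These were Plod2, a lysyl hydroxylase, by 0.84 (limma, adjusted p = 2.84e-05) and P4ha2 by 0.34 (adjusted p = 0.0113). P4ha2 thus moved in opposite directions in the clones, and its direct difference between them was 1.29 (adjusted p = 9.5e-10).

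Genes for propeptide cleavage and crosslinking were called higher in 4 of 6 tested cases in U17_KD (20% of all genes) and lower in 1 (20.4% of all genes, so that 1 of 6 is near the background). Lox, which crosslinks collagen, rose by 1.85 ± 0.13 and Pcolce by 1.53 ± 0.11 (limma, adjusted p = 2.72e-09 and 3.31e-09), and Loxl1 by 0.73. Loxl4, another lysyl oxidase, fell by 0.46 with overlapping groups. In U17_OE limma called none of the 6 higher (6.48% of all genes were), although 3 were higher at an unadjusted p under 0.05. Pxdn, the peroxidase that crosslinks type IV collagen, fell by 0.54 (adjusted p = 0.0346) on 1 of its 2 probes, where 6.37% of all genes were called lower. That call was lost in 6 of the 21 alternatives, with adjusted p-values up to 0.119.

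Of 8 tested basement membrane partners 4 rose and 1 fell in U17_KD, against 20% and 20.4% of all genes. Nidogen 2 (Nid2) rose by 1.22 ± 0.13 and Sparc by 1.17 ± 0.08 (limma, adjusted p = 7.16e-07 and 9.92e-10), and the laminin chain Lamb2 rose by 0.64. The laminin chain Lama2 was called lower, but it was detected on 4 WT arrays and 1 U17_KD array, so it entered the test through WT. Over the 7 partners detected on all arrays of both groups 4 were higher and 0 lower. In U17_OE, where 6.48% of all genes were called higher and 6.37% lower, Sparc rose by 0.48 (adjusted p = 0.000411), and Lama2, below the detection level on all 4 arrays, was at least 1.64-fold lower (adjusted p = 6.61e-05). Col6a1 and Sparc thus had the same order of groups.

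Collagen receptors and the genes for uptake and cleavage had 5 of 11 tested members called higher and 1 lower in U17_KD, against 20% and 20.4% of all genes. One of the 5 calls was Itga11, an integrin chain of a fibrillar collagen receptor, which was detected on 4 U17_KD arrays, 1 WT array and 0 U17_OE arrays and so entered the test through U17_KD. Its fitted difference of 2.73 rests on a WT level mostly below detection, and over the 10 members detected on all arrays of both groups 4 were higher and 1 lower. The collagen-degrading enzymes Ctsk, cathepsin K, and Mmp14 rose by 1.07 (limma, adjusted p = 1.57e-07) and 0.64 (adjusted p = 1.91e-05), and the type VI collagen receptor Cspg4 fell by 0.64 (adjusted p = 0.000318). In U17_OE Ctsk fell by 1.29 (adjusted p = 1.03e-07) while Mmp2, a gelatinase, rose by 0.41 (adjusted p = 0.00673), the only 2 calls of the 11, against 6.48% of all genes higher and 6.37% lower. Between the clones Ctsk differed by 2.36 (adjusted p = 4.09e-12).

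**Figure D4:**
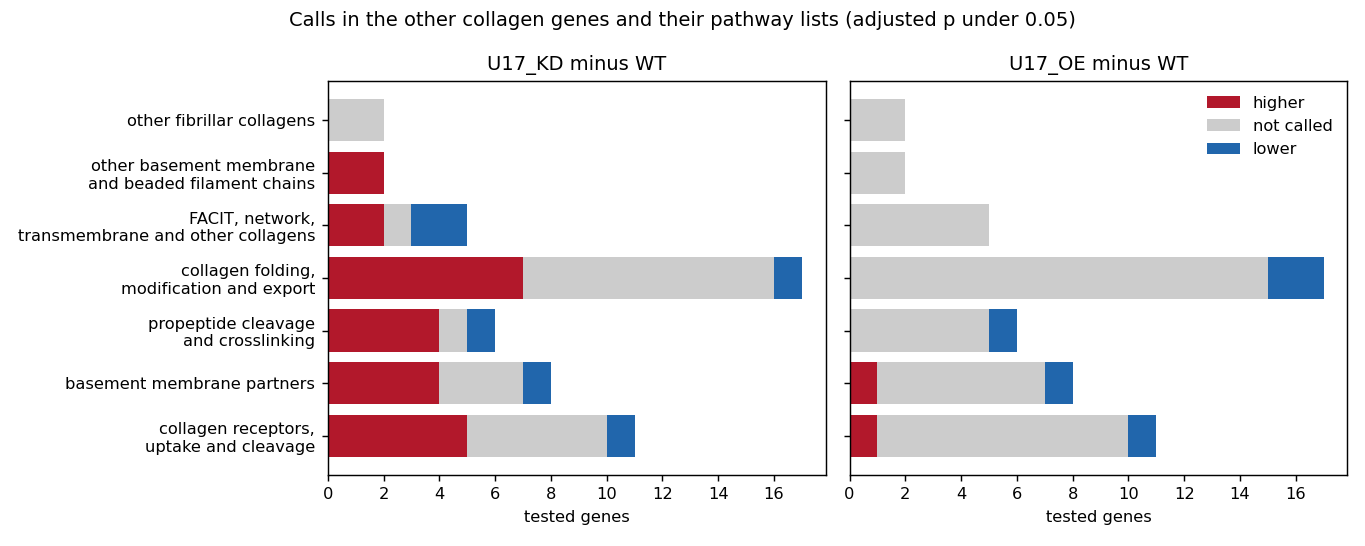
Number of tested genes (horizontal axis) called higher (red), called lower (blue) or not called (grey) against WT in 7 lists of other collagens and collagen-related genes (vertical axis), for U17_KD on the left and U17_OE on the right. Red bars dominate 2 lists in U17_KD, the type IV partners (2 of 2) and the cleavage and crosslinking genes (4 of 6), and grey bars fill most of every list in U17_OE.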

How the data were processed

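The authors deposited 2 tables of probe intensity on a linear scale: a normalized, background-subtracted table of all 12 arrays, and an unnormalized one that, per the file headers, adds a detection p-value for every probe. The submitters' processing notes name GenomeStudio 2010, with no normalization method given here. Of the second deposited table the 8 WT columns were used, and 40 of 48 columns were not, since their array names match no label. Background mean (0.492) and SD (15.8), estimated from the WT detection p-values, went into normexp on the normalized intensity, followed by log2 after adding 16. Probes at or above 30.5 on at least 4 arrays were kept (16706 of 45281). limma 3.58.1 in R 4.3.3 fitted the 3 groups together, with a mean-variance trend and 9 residual degrees of freedom; tests are two-sided, Benjamini-Hochberg adjusted over kept probes in each comparison, at 0.05. The procedure was tested on simulated data.

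Each gene took its probe with the highest mean, and every member is named. In other lists up to 4 called genes with the largest differences are named per comparison with WT. For likeness the nearest genes and same-type partners are named; ranks beyond the nearest gene and the Col11a2 and Col27a1 values were added after they were seen. Members and lists were chosen with earlier results of these data known. Probe names come from the platform annotation (34885 probes with 1 symbol, 18 with several, 10378 not listed). Direct clone values for P4ha2 and Ctsk were chosen after their values were seen. Alternatives covered background correction, offset, quantile normalization, filter, trend, arrays in the fit, pairing, other probes and each array left out. The number of arrays limits the precision.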

Additional observations from a re-analysis of the deposited data

Results flagged for a closer look

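In 3 of 33 groups of 4 arrays, over the 11 tested collagen probes, 1 array lay far from the other 3 by Dixon's criterion, which chance alone would meet in about 1 of 20 groups. Col4a1 on U17_KD replicate 3 was at a log2 intensity of 11.93, where the other U17_KD arrays were at 11.71 to 11.75. Col4a1 on U17_OE replicate 3 was at 11.44, with the other U17_OE arrays at 10.97 to 11.01, and this is the array that stood apart over all kept probes. The second bright Col6a1 probe on U17_KD replicate 3 was at 12.79, with its group mates at 12.61 to 12.64. In each case the array was the highest of its group.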

How the results depend on the processing

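Against WT, the 8 collagens stayed higher in U17_KD under every alternative run, with 7 to 8 called when 1 array was left out and 8 under the other settings. Over all kept probes 6237 were called there, 5305 to 7372 with 1 array left out. In U17_OE the calls over all probes were 1925, but 1193 with only the 2 groups fitted and 1248 to 2973 with 1 array left out, the highest without U17_OE replicate 3 and the lowest without U17_OE replicate 4; collagens called there were 2, but 1 with only the 2 groups fitted and 1 to 3 with 1 array left out. Between the clones 5024 probes were called (4012 to 5781 with 1 array left out), and 6 to 8 collagens. Among the collagens direction changed only in differences that were not called, and for Col6a2 between the clones on its other probe. For U17_OE against WT, Col1a2 went from 0.004 to -0.002 with values floored at the detection level and no normexp, and ranged from -0.13 to 0.12 with 1 array left out, while Col3a1 ranged from -0.23 to 0.24. Between the clones the other Col6a2 probe gave -0.004. Of the partner-chain values, Col4a1 less Col4a2 in U17_OE against WT ranged from -0.006 to 0.112 and Col6a1 less Col6a2 between the clones from -0.04 to 0.237 with 1 array left out. With the replicate number as a block, 5659, 1398 and 4397 probes were called in U17_KD against WT, U17_OE against WT and between the clones, and 8, 2 and 8 collagens, so the block changed no collagen count. Same-numbered arrays correlated at -0.382 to 0.089 in their deviations, and 0 of 12 arrays correlated best with its own number. These values showed no pairing by number, and whether arrays shared a batch was not tested. For the genes named in the other lists 603 values kept their direction and call and 6, all of Pxdn in U17_OE, lost the call. The slide was not run as a block because no file gives it for every array. Dim probes (Col1a2, Col3a1) and Col5a2, below the detection level, limit what these arrays show of fibrillar collagen.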
